A study of Homo sapiens with 9 samples.

Results

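SESN1, BAX, RRM2B and CCNG1 are 4 genes that the transcription factor p53 can switch on, and they are described here in A549 cells grown with and without attachment to the plate. The members are the probe sets whose platform symbol is one of these names, which gave 1 probe set for each gene, 4 genes of the 14884 genes named on the array. They were chosen by their log2 intensity across the 3 culture conditions, on the same arrays that are described below. Differences of these genes between the conditions are therefore given as values with an error and an interval, and with no test.

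A549 is an established human line from a lung adenocarcinoma that carries an unmutated p53 gene and normally grows attached to plastic. All groups were the same line in serum-containing medium, sampled at day 5. The attachment group was kept on ordinary plates in normal medium. The low_attachment group was kept on low-attachment plates in normal medium, and the third group on low-attachment plates in medium with FP001, an additive, at 0.015% (w/v). Each condition had 3 arrays, of which 8 in all were used, because the array of attachment replicate 1 was left out by the rule that defines the members. The attachment values thus rest on 2 arrays. The line is 1 culture model with no other line beside it, and the labels do not say whether replicates were separate cultures.

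p53 is a transcription factor that becomes stable and active after DNA damage and other stresses and then binds short paired DNA elements near its target genes. Its targets carry out cell cycle arrest, cell death, DNA repair and changes of metabolism. The 4 members sit in different arms of that programme. SESN1 encodes sestrin 1, which lowers mTORC1 activity through the GATOR complexes and takes part in antioxidant defence. BAX encodes an effector of the BCL2 family that permeabilises the outer mitochondrial membrane during apoptosis. RRM2B encodes the p53-inducible small subunit of ribonucleotide reductase, which supplies deoxynucleotides for DNA repair and for mitochondrial DNA outside S phase. CCNG1 encodes cyclin G1, which brings protein phosphatase PP2A to MDM2 and so acts back on p53.

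RefSeq promoter windows (GRCh38.p14), from 250 bases before to 50 bases after an annotated start, were given for 3 of the 4 members. They are shown because the members have p53 in common as a known regulator, so that a reader can see what each start region holds. A window was searched on both strands for the p53 half-site and the p53 full site, by name, and for CACGTG (the core E-box) and CCAAT. The motif of interest is in capitals in each line, 5′ to 3′ on the strand of the gene.
SESN1, chr6:109008939-109009238, minus strand, p53 half-site in capitals: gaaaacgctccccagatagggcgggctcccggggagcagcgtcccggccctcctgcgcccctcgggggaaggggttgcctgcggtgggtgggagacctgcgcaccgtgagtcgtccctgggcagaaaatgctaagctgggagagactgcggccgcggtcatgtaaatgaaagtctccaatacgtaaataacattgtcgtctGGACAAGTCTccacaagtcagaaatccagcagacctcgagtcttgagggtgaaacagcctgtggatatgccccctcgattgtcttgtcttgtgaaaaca
BAX, chr19:48954625-48954924, plus strand, CACGTG in capitals: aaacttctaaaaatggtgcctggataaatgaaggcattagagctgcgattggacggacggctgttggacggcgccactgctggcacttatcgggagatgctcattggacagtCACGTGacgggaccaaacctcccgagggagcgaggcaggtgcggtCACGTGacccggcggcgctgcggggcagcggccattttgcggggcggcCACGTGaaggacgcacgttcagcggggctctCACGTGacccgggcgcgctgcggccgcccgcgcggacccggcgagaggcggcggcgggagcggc
CCNG1, chr5:163437321-163437620, plus strand, CCAAT or its reverse complement ATTGG in capitals: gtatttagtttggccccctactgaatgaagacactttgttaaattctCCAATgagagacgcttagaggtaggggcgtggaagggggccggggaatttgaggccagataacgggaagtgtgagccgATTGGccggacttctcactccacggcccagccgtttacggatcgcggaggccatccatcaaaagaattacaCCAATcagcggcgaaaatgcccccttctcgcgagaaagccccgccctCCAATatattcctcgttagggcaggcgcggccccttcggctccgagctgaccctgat
PURPL, chr5:27472042-27472341, plus strand, p53 full site in capitals: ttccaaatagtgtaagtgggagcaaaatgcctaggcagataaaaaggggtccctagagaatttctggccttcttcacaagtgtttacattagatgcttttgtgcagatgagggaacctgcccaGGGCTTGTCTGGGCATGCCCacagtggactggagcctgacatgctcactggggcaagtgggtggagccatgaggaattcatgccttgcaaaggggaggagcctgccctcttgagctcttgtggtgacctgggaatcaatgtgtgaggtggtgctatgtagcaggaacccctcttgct

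The 3 member windows each held CCAAT, with 1 copy in SESN1, 2 in BAX and 4 in CCNG1, and none held a p53 full site. Of 3 annotated SESN1 starts, only the one shown held a p53 half-site, GGACAAGTCT, which began 49 bases before the start. Windows with a half-site made up 6.63% of the 35116 promoter windows in the table, so a match by itself is not rare. Of the 122 windows of the listed p53 targets, members included, 13.1% held one. The BAX window had no half-site and held 4 copies of CACGTG, a motif present in 7.26% of all windows and present at least 4 times in 0.0142% of them. The CCNG1 window had no half-site either and held CCAAT or its complement 4 times, where 34.6% of all windows had any copy and 0.991% at least 4. A second, overlapping CCNG1 window also held 4. The motif in capitals was set gene by gene, so these shares do not compare the genes. PURPL, a long non-coding RNA gene induced by p53, is shown for contrast because its window held a full site, GGGCTTGTCTGGGCATGCCC, beginning 127 bases before the start. Only 0.0285% of all windows held a full site, and among 80 listed p53 targets with a window PURPL and DDB2 were those that did. These matches describe letters in a window and say nothing of binding, and elements outside the window were not searched.

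Attachment replicate 1 stood apart from the other arrays. It had a median intensity of 15.83, where the medians of the others were 23.26 to 24.1. Its highest rank correlation with any of the 8 was -0.00191, against 0.961 to 0.985 among the 8 arrays used. With that array in the fit the attachment differences of BAX, RRM2B and CCNG1 changed sign and SESN1 kept its own, at -0.55 in normal medium and -0.46 with FP001. On that array SESN1 read 42.1, BAX 25.0, RRM2B 12.7 and CCNG1 5.6. Summed intensity was 6810557 and 6658214 on the attachment arrays used and 6384444 to 6569897 on the 6 low-attachment arrays. The number of arrays, and not a read depth, limits the precision here. In RNA of whole cultures, fewer cells of a kind and less RNA per cell cannot be told apart.

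Each of the 4 genes read lower on all 6 low-attachment arrays than on both attachment arrays. Taking 1 medium at a time, 23.4% of all genes did so in normal medium and 26.2% with FP001. The share over all 6 arrays was not computed. The falls ranged from 1.39-fold for CCNG1 to 1.73-fold for SESN1 in normal medium and from 1.37-fold to 1.63-fold with FP001. Between the low-attachment media the 4 genes differed by at most 0.09 on the log2 scale. The values by array follow, gene by gene.

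**Figure D1:**
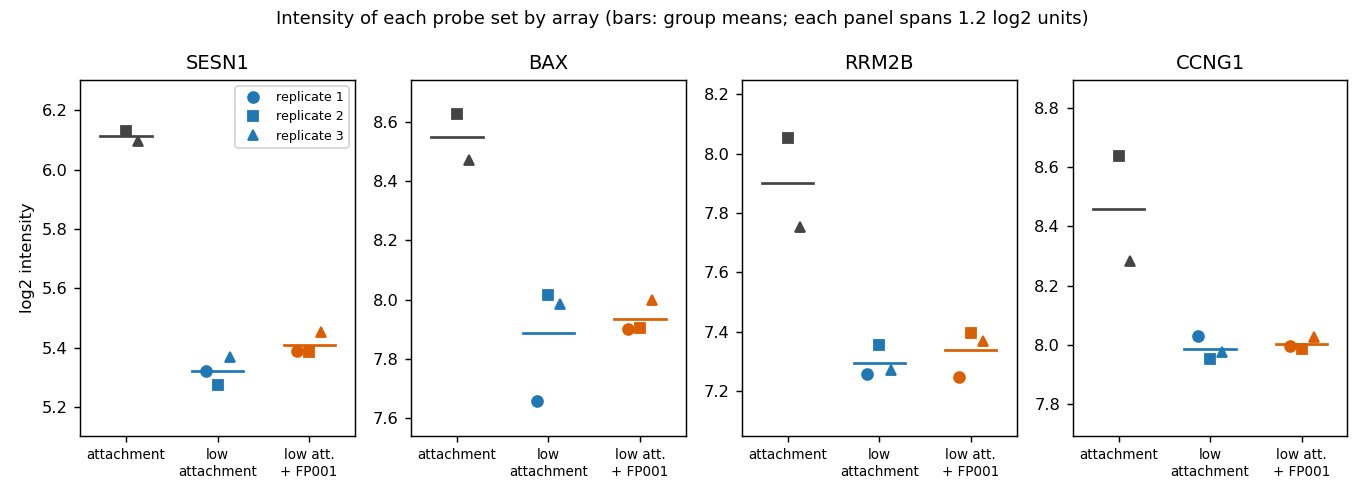
Log2 intensity (y axis) of the probe set of each member on the 8 arrays used, by culture condition (x axis), with marker shapes for replicate numbers and a bar at each group mean. Both attachment arrays lie above all 6 low-attachment arrays in every panel, and the attachment arrays lie farther apart for RRM2B and CCNG1 than for SESN1.

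SESN1, whose product restrains mTORC1, had intensities of 70.1 and 68.4 on attachment replicates 2 and 3. It read 40.0, 38.7 and 41.3 on low attachment and 41.9, 41.8 and 43.8 on low attachment with FP001. The attachment arrays thus nearly coincide and sit well above a tight band of 6 low-attachment values. Group means were 69.2, 40.0 and 42.5, with SDs of 0.026 (n = 2), 0.046 (n = 3) and 0.037 (n = 3) on the log2 scale. Low attachment minus attachment was -0.79 ± 0.10 (SE, 95% interval -1.01 to -0.58), a level 1.73-fold lower. With FP001 the difference from attachment was -0.70 ± 0.10 (SE, 95% interval -0.92 to -0.49), or 1.63-fold lower. SESN1 was the dimmest member, brighter than 27.6% of the genes tested, where CCNG1 passed 83.4% of them.

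BAX, the pore-forming death effector, had intensities of 394.8 and 354.8 on the attachment arrays. It read 201.8, 258.7 and 253.3 on low attachment and 239.1, 239.8 and 255.5 with FP001. Low-attachment replicate 1 was the lowest array, while the other 5 low-attachment arrays lay between 239.1 and 258.7. Group means were 374, 236 and 245, with log2 SDs of 0.109 (n = 2), 0.199 (n = 3) and 0.054 (n = 3). The log2 difference from attachment was -0.66 ± 0.12 (SE, 95% interval -0.92 to -0.41) in normal medium, a 1.58-fold lower level. It was -0.61 ± 0.12 (SE, 95% interval -0.87 to -0.36) with FP001, or 1.53-fold lower.

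RRM2B, the p53-inducible reductase subunit, had intensities of 265.2 and 215.8 on the attachment arrays. Low attachment gave 153.1, 163.7 and 154.5, and FP001 gave 151.9, 168.4 and 165.4. All 6 low-attachment arrays fell between 151.9 and 168.4, and the attachment arrays were the ones that spread. Group means were 239, 157 and 162, with log2 SDs of 0.21 (n = 2), 0.053 (n = 3) and 0.08 (n = 3). The log2 difference was -0.61 ± 0.11 (SE, 95% interval -0.84 to -0.37) in normal medium, 1.52-fold lower, and -0.56 ± 0.11 (SE, 95% interval -0.80 to -0.33) with FP001, 1.48-fold lower.

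CCNG1, the cyclin that acts back on the p53 regulator MDM2, had intensities of 397.7 and 311.4 on the attachment arrays. It read 261.2, 247.6 and 251.9 on low attachment and 255.2, 253.6 and 261.0 with FP001. The low-attachment arrays were nearly level across both media, and the smaller attachment value was the nearest to them of any member. Group means were 352, 254 and 257, with log2 SDs of 0.25 (n = 2), 0.039 (n = 3) and 0.022 (n = 3). The log2 difference was -0.47 ± 0.11 (SE, 95% interval -0.71 to -0.24) in normal medium, 1.39-fold lower, and -0.46 ± 0.11 (SE, 95% interval -0.69 to -0.22) with FP001, 1.37-fold lower. This value leaned most on single arrays. Without attachment replicate 2 it was -0.30 in normal medium and -0.28 with FP001, and without attachment replicate 3 it was -0.65 and -0.63.

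The attachment arrays differed from each other in 1 direction for these genes. Replicate 2 read higher than replicate 3 by 1.03-fold for SESN1, 1.11-fold for BAX, 1.23-fold for RRM2B and 1.28-fold for CCNG1, and 54.5% of all genes tested were also higher on replicate 2. The highest low-attachment array stood at 64.0% of the lowest attachment array for SESN1, 72.9% for BAX, 78.0% for RRM2B and 83.9% for CCNG1. The margin between the groups therefore narrowed in the order in which the falls became smaller. RRM2B moved likewise with the choice of arrays, from -0.76 without attachment replicate 3 to -0.46 without attachment replicate 2 in normal medium, and from -0.71 to -0.42 with FP001.

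Set among all 10916 genes tested, which had a median log2 difference of 0.01 in normal medium and 0.02 with FP001, the members lay in the lower tail. Ranked from the most negative difference, SESN1 was number 156, BAX 250, RRM2B 311 and CCNG1 579 in normal medium. With FP001 the ranks were 369, 519, 632 and 985. In limma's test (Benjamini-Hochberg, adjusted p under 0.05) 5.76% of all genes were lower and 4.31% higher on low attachment, and 11.4% were lower and 8.08% higher with FP001. Genes whose low-attachment arrays all lay below both attachment arrays were common, at 23.4% of all genes in normal medium and 26.2% with FP001, and all 4 members were of this kind in both. Nothing is read from that count, since the members were selected on these contrasts. The comparisons of the low-attachment media with attachment share the attachment arrays, so their agreement for a gene is no separate evidence. The balance of called genes depended on scaling: 629 lower and 471 higher in normal medium became 512 and 612 after quantile normalization, and 1244 and 882 with FP001 became 968 and 1241.

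**Figure D2:**
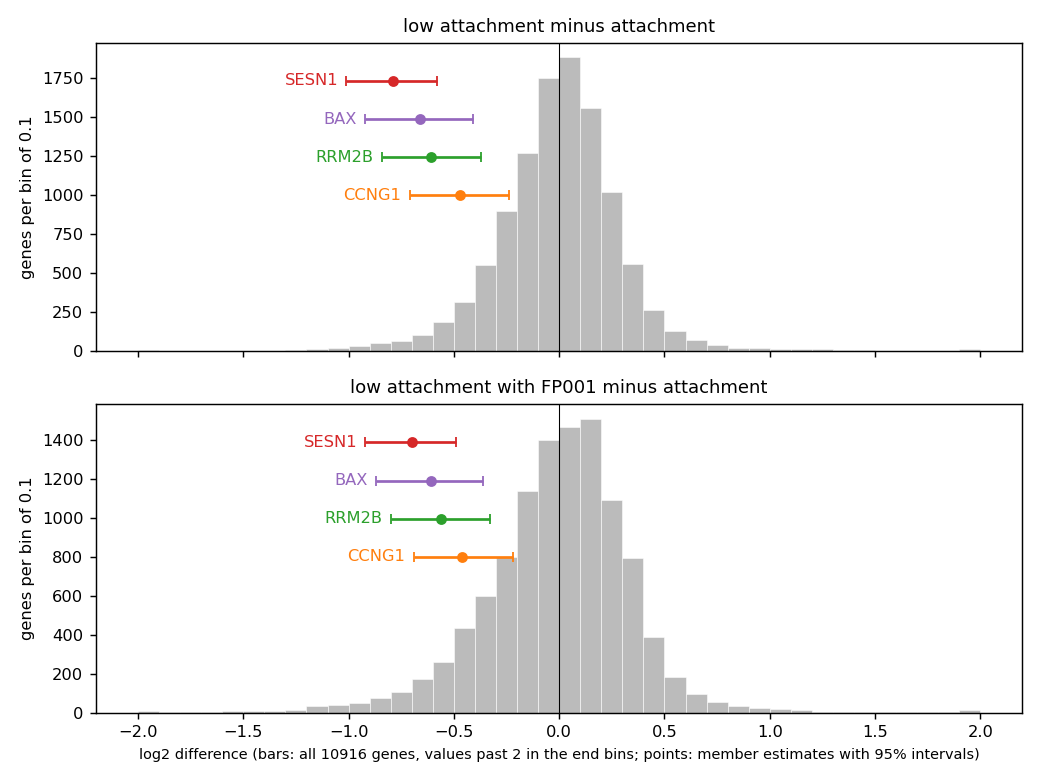
Histogram of the log2 difference (x axis) of all 10916 genes tested, as genes per bin (y axis), for low attachment against attachment in normal medium (top) and with FP001 (bottom), with each member's estimate and 95% interval drawn above it. Most genes lie close to 0, and the members' estimates lie between -0.79 and -0.46, with intervals that end below 0.

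On low-attachment plates the members read much the same with and without FP001. FP001 minus normal medium was 0.09 ± 0.09 (SE, 95% interval -0.10 to 0.28) for SESN1, 0.05 ± 0.10 (SE, -0.18 to 0.28) for BAX, 0.04 ± 0.09 (SE, -0.17 to 0.25) for RRM2B and 0.02 ± 0.09 (SE, -0.19 to 0.23) for CCNG1. Every interval included 0, and none reached a rise or fall of 0.3. In the order of levels, attachment was highest, FP001 next and normal medium lowest for each gene, and the lower neighbours did not differ beyond that error. SESN1 was alone among the members in that its FP001 arrays (41.8 to 43.8) all lay above the normal-medium arrays (38.7 to 41.3), which 8.48% of all genes did. Between arrays of the same number SESN1 differed by 0.07, 0.11 and 0.08 and RRM2B by -0.01, 0.04 and 0.10. BAX differed by 0.24, -0.11 and 0.01, the first value coming from the low normal-medium array, and CCNG1 by -0.03, 0.03 and 0.05. Over all genes 8 (0.0733%) were lower and 4 (0.0366%) higher with FP001 than in normal medium by limma, with 1265 at an unadjusted p under 0.05. With the replicate block, which pairs same-numbered arrays of all 3 groups, 142 genes were called. The intervals above do not use this pairing. With the block the members' differences were 0.09 ± 0.10 for SESN1, 0.05 ± 0.08 for BAX, 0.04 ± 0.08 for RRM2B and 0.02 ± 0.09 for CCNG1.

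The closest relatives of the members did not share one pattern. Among the sestrins, SESN2 read 102.5 and 81.8 on attachment, 72.5 to 77.9 on low attachment and 67.9 to 76.7 with FP001, and its differences of -0.28 ± 0.12 and -0.32 ± 0.12 missed limma's threshold (adjusted p = 0.161 and 0.0761). SESN3 scattered widely, with differences of 0.50 ± 0.36 and 0.19 ± 0.36 (adjusted p = 0.412 and 0.733). For BAX, the other effectors stayed near their attachment level: BAK1 was -0.10 ± 0.10 and 0.08 ± 0.10 (adjusted p = 0.578 and 0.604), and BOK 0.06 ± 0.12 and 0.24 ± 0.12 (adjusted p = 0.772 and 0.177).

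Ribonucleotide reductase subunits went different ways. RRM2, the small subunit made in S phase, rose where RRM2B read lower. It had 234.6 and 373.3 on attachment, 410.7, 550.3 and 508.1 on low attachment and 523.9, 628.6 and 654.4 with FP001. All 6 low-attachment arrays were above both attachment arrays. The share of all genes separated upward was not computed, while 23.4% were separated downward in normal medium and 26.2% with FP001. The rise was 0.72 ± 0.19 in normal medium (1.64-fold, limma adjusted p = 0.0361) and 1.02 ± 0.19 with FP001 (2.03-fold, adjusted p = 0.00508). Without attachment replicate 2 the differences were 0.38 and 0.68. The first of these calls ended without any of 5 arrays (adjusted p = 0.0537 to 0.283, the highest without attachment replicate 2), and the second without attachment replicate 2 (adjusted p = 0.0544). The large subunit RRM1 was -0.32 ± 0.10 and -0.09 ± 0.10 (adjusted p = 0.0662 and 0.562). Of the relatives of CCNG1, cyclin G2 (CCNG2) was -0.03 ± 0.18 and -0.33 ± 0.18 (adjusted p = 0.944 and 0.222), and cyclin I (CCNI) 0.15 ± 0.07 and -0.05 ± 0.07 (adjusted p = 0.23 and 0.665).

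**Figure D3:**
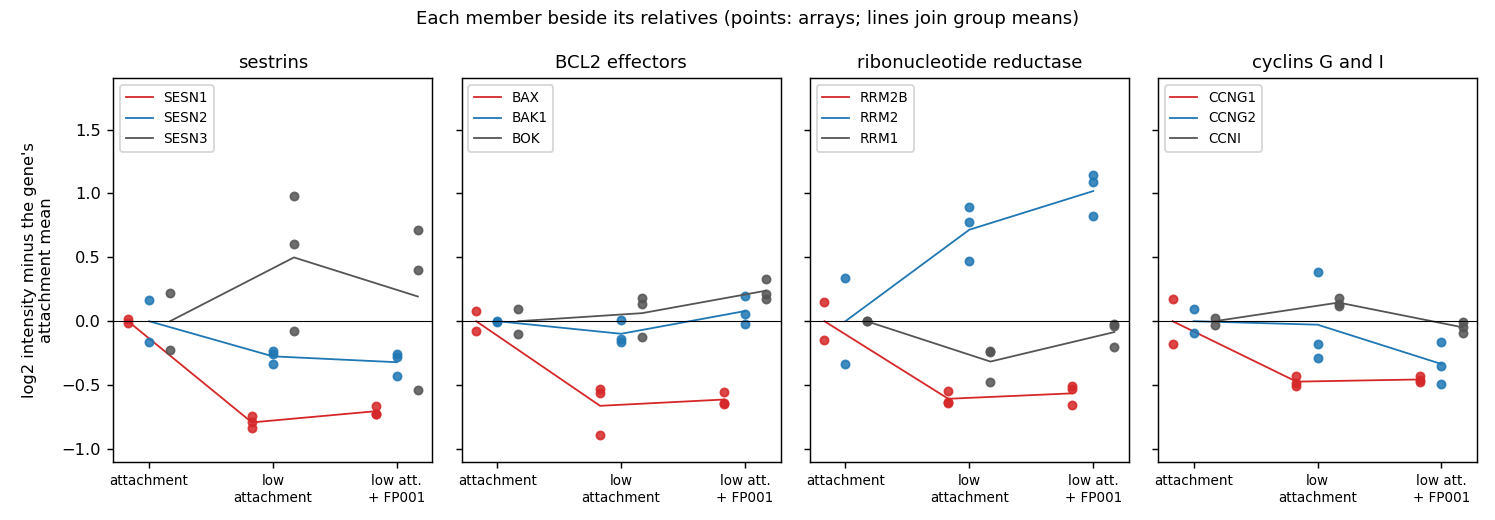
Log2 intensity minus the gene's own attachment mean (y axis) for each member and 2 relatives by culture condition (x axis), with a point for each of the 8 arrays and lines through group means. SESN1, BAX, RRM2B and CCNG1 drop to between -0.79 and -0.46, RRM2 climbs to 0.72 and 1.02, and SESN3 has the widest scatter.

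The other p53 targets were taken from 5 lists of 102 genes without the members, of which 58 were named and 53 tested. In normal medium 16 of the 53 (30.2%) fell and 1 rose by limma, 37 had a negative difference and the median was -0.20, where 5.76% of all genes fell, 4.31% rose and 48.5% were negative. With FP001 17 (32.1%) fell and 4 rose, 34 were negative and the median was -0.16, where 11.4% of all genes fell, 8.08% rose and 47.5% were negative. After quantile normalization 14 fell and 3 rose in normal medium, and 14 fell and 4 rose with FP001. The lists were assembled with earlier results of these data known and are given by counts. By role, 2 of 7 arrest genes fell in normal medium, 2 of 8 death genes, 2 of 4 repair genes, 3 of 13 genes of metabolism and autophagy and 8 of 22 others, with 1 rise among the others. With FP001 the falls were 2, 2, 1, 5 and 8, and the rises 2, 0, 0, 1 and 1. PLK2 is in both the arrest list and the others and is counted in each here, and once in the totals.

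The called targets are given next to the member they stand nearest to by role. Next to BAX in the death pathway, APAF1, the scaffold of the apoptosome, read 181.6 and 150.3 on attachment against 96.5 to 110.3 on low attachment and 92.2 to 107.8 with FP001. It fell by 0.67 ± 0.12 (adjusted p = 0.00628) and 0.71 ± 0.12 (adjusted p = 0.00285). The nuclease gene AEN was -0.44 ± 0.11 and -0.38 ± 0.11 (adjusted p = 0.0346 and 0.042). EDA2R, a death-domain receptor of the TNF family, fell by 0.93 ± 0.19 (adjusted p = 0.0135) and 1.05 ± 0.19 (adjusted p = 0.00509). The largest falls of the group in normal medium were of GDF15, a secreted stress cytokine (-1.22 ± 0.13, adjusted p = 0.000596), and with FP001 of PURPL (-1.53 ± 0.21, adjusted p = 0.0013). PURPL, whose window above held the full site, was -0.91 ± 0.21 in normal medium (adjusted p = 0.0239).

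Targets near SESN1 in metabolism included TIGAR, which lowers glycolytic flux, at -0.52 ± 0.10 and -0.39 ± 0.10 (adjusted p = 0.0102 and 0.0233). DRAM1, a lysosomal inducer of autophagy, was -0.75 ± 0.16 and -1.15 ± 0.16 (adjusted p = 0.0183 and 0.00149). Near RRM2B among the repair genes, RPS27L was -0.71 ± 0.13 and -0.85 ± 0.13 (adjusted p = 0.00719 and 0.00165). PCNA, the replication clamp, was -0.43 ± 0.12 in normal medium (adjusted p = 0.0442) and -0.13 ± 0.12 with FP001 (adjusted p = 0.478). Of the arrest genes beside CCNG1, LIF was -0.93 ± 0.15 and -0.74 ± 0.15 (adjusted p = 0.00421 and 0.0077), and the kinase PLK2 -0.52 ± 0.13 and -0.41 ± 0.13 (adjusted p = 0.0281 and 0.0443). SFN (14-3-3 sigma) went the other way with FP001, at 0.55 ± 0.09 (adjusted p = 0.00334), against 0.11 ± 0.09 in normal medium (adjusted p = 0.493). RALGDS rose in both (0.77 ± 0.14 and 0.70 ± 0.14, adjusted p = 0.00875 and 0.00892).

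Many of these calls rested on 1 array. Of the 17 calls in normal medium, 3 were made again without attachment replicate 2 and 9 without attachment replicate 3, with 11 to 17 when a low-attachment array was left out. Of the 21 with FP001, 8 and 12 were made again without those attachment arrays, and 15 to 21 otherwise. Without attachment replicate 2 APAF1 had an adjusted p of 0.073 in normal medium, RPS27L 0.0817, TIGAR 0.101 and EDA2R 0.123, the last 0.0643 with FP001. AEN, PLK2 and PCNA lost their calls without any of 4 to 6 arrays (adjusted p up to 0.293), and some of their calls also ended under quantile normalization (adjusted p = 0.0739 for PCNA in normal medium, and 0.0655 for AEN and 0.0846 for PLK2 with FP001). PURPL and DRAM1 in normal medium were lost without 3 and 2 arrays (up to 0.192 and 0.168), TIGAR with FP001 without 2 (up to 0.171), LIF with FP001 without attachment replicate 3 (0.0611), and RALGDS in both without it (0.086 and 0.0791).

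**Figure D4:**
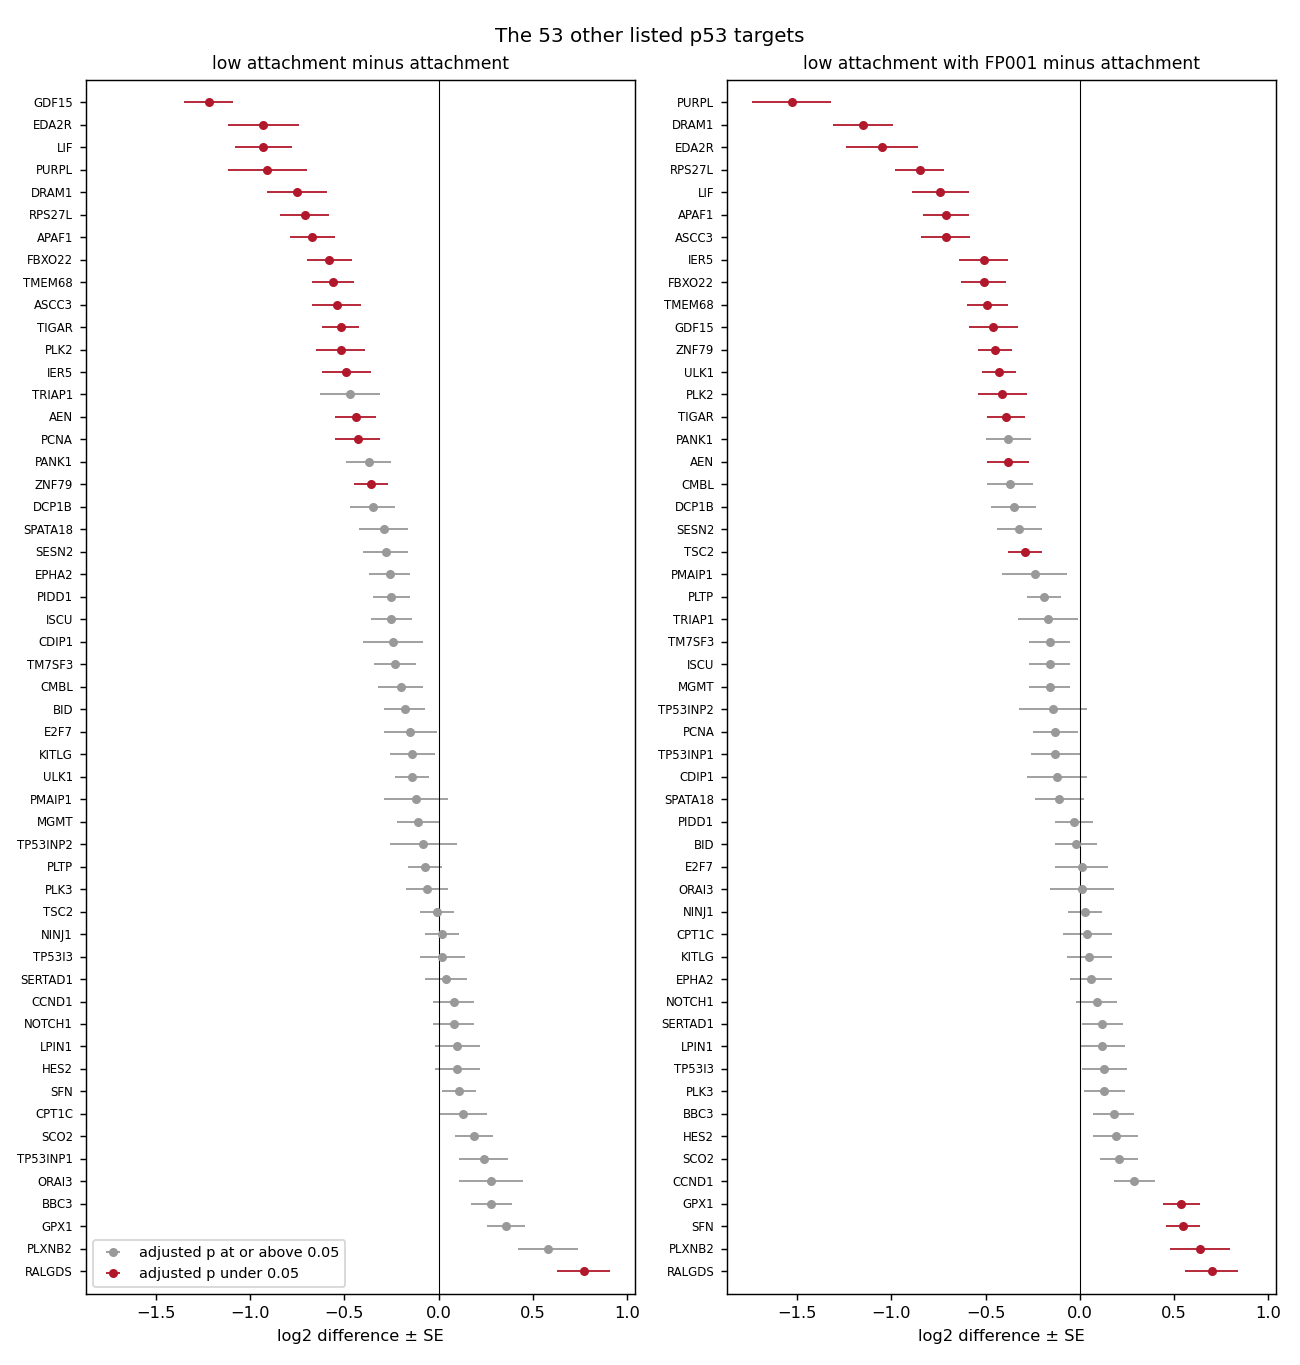
Log2 difference ± SE (x axis) of the 53 other listed p53 targets (y axis, sorted) for low attachment minus attachment in normal medium (left) and with FP001 (right), with genes called by limma at an adjusted p under 0.05 in red. The red points lie mostly left of 0, with 16 falls and 1 rise on the left and 17 falls and 4 rises on the right, and the majority of genes are grey.

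Of the 53 other targets tested, GDF15 was the 1 called between the low-attachment media. It read 1141.8 and 929.4 on attachment, 436.0, 384.8 and 513.4 on low attachment and 751.9, 699.7 and 806.2 with FP001, so that the 3 groups did not overlap. FP001 minus normal medium was 0.77 ± 0.12 (limma adjusted p = 0.0455), and with the replicate block 0.77 ± 0.11 (adjusted p = 0.00643), where SFN was called as well (0.44 ± 0.08, adjusted p = 0.0226). Without the block the GDF15 call ended whichever of the 8 arrays was left out (adjusted p = 0.0509 to 0.156). Its difference from attachment with FP001 was -0.46 ± 0.13 (adjusted p = 0.0342, lost without 3 of the arrays, up to 0.263). None of the 4 members had a difference between the media of this size.

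The pathways that the members' products act in are given as counts, against 5.76% of all genes lower and 4.31% higher in normal medium and 11.4% and 8.08% with FP001. In the sestrin and GATOR branch of mTORC1, 1 of 23 genes fell and 2 rose in normal medium (median -0.06), and 5 fell (21.7%) and 2 rose with FP001 (median -0.13). KEAP1, the NRF2 adaptor that sestrins act on, rose by 0.44 ± 0.08 and 0.42 ± 0.08 (adjusted p = 0.00644 and 0.00509), the first lost without attachment replicate 3 (adjusted p = 0.0548). WDR59, a GATOR2 subunit, was -0.29 ± 0.09 and fell with FP001 by 0.54 ± 0.09 (adjusted p = 0.0738 and 0.0038). In the list of the BCL2 family and its partners, APAF1, which is no BCL2 protein, was the 1 of 18 that fell in normal medium (median -0.11). On low attachment with FP001, against attachment, APAF1 fell and BAD rose (median 0.01). FP001 minus normal medium was -0.04 ± 0.10 for APAF1 and 0.13 ± 0.10 for BAD (limma adjusted p = 0.917 and 0.659). BAD, a BH3-only protein, was 0.34 ± 0.11 and 0.47 ± 0.11 (adjusted p = 0.0804 and 0.0165, the latter lost without either attachment array, 0.0662 and 0.104).

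In the ribonucleotide reductase and deoxynucleotide list, 1 of 19 fell and 2 rose in normal medium (median -0.18), and 1 fell and 3 rose with FP001 (median -0.08). Besides RRM2, the deoxynucleotide hydrolase SAMHD1 rose (0.36 ± 0.10 and 0.42 ± 0.10, adjusted p = 0.0473 and 0.016), with the first call lost without any of 6 arrays (adjusted p up to 0.26) and with arrays centred on the median or with no filter (0.0688 and 0.0564) and the second without attachment replicate 3 (0.115). None of the 4 tested genes of the cyclin G list was called by limma in either comparison (medians -0.04 and -0.08). Among regulators upstream of p53 and in its feedback, 1 of 10 fell in normal medium (median -0.15) and 2 with FP001 (median -0.24). These were TP53BP1, a repair adaptor (-0.48 ± 0.12 and -0.58 ± 0.12, adjusted p = 0.0259 and 0.00759), and with FP001 the kinase CHEK2 (-0.94 ± 0.21, adjusted p = 0.014), each lost without attachment replicate 2 (0.17 and 0.0762 for TP53BP1, 0.12 for CHEK2), the first of them also without 3 other arrays. MDM4, a p53 inhibitor, was -0.03 ± 0.14 and -0.31 ± 0.14 (adjusted p = 0.9 and 0.133).

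Genes that active p53 lowers through the DREAM complex were also read. All 25 had a negative difference in normal medium (median -0.27, and 24 of 25 after quantile normalization), and 4 fell by the test, among them AURKA (-0.77 ± 0.16, adjusted p = 0.015) and CKS2 (-0.72 ± 0.14, adjusted p = 0.00906), both lost without either attachment array (adjusted p up to 0.107). With FP001 17 were negative and 0 were called (median -0.11). All 25 were higher with FP001 than in normal medium (median 0.20), with 0 called by limma, where 48.4% of all genes were lower. Low-attachment replicate 1 was the lowest normal-medium array for each gene named here and for the called genes TTK and ECT2, by margins that varied. BUB1 read 162.5 on it against 333.3 and 289.2 on the other normal-medium arrays, and 206.7, 324.0 and 305.1 with FP001. KIF23 read 719.0 against 923.4 and 875.5, with 841.8 and 953.6 on attachment. CDCA3 read 131.4 against 132.8 and 138.5. Both counts of 25 include low-attachment replicate 1, and the sign counts without that array were not computed. On the other normal-medium arrays KIF23 lay inside its attachment range, and BUB1 did not lie below its FP001 arrays. Of FOXO targets, a list that shares stress genes with p53, 0 of 22 fell and 1 rose in normal medium (median 0.04), and 5 fell (22.7%) and 2 rose with FP001 (median -0.05), where 5.76% of all genes fell in normal medium and 11.4% fell and 8.08% rose with FP001.

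The genes most like each member were found by Pearson correlation of log2 intensity over the 8 arrays, and all arrays share the contrast of attachment with low attachment, so a high r mainly restates that contrast. SESN1 ran closest to the immediate early genes EGR1 (r = 0.993), DUSP1 (0.993) and FOS (0.988), followed by HSD17B4 (0.986) and KIRREL1 (0.985). EGR1 fell by 3.36 ± 0.11 in normal medium and DUSP1 by 2.00 ± 0.11, so the likeness is of shape and not of size. BAX was closest to MTERF3 (0.988), SEPTIN11 (0.988), ELOVL2 (0.986), TSPAN14 (0.985) and PM20D2 (0.985). RRM2B was closest to NADK2 (0.99), MYO1E (0.983), AARS1 (0.98), MYEF2 (0.979) and APAF1 (0.976), of which APAF1 is a p53 target. CCNG1 was closest to PIEZO2 (0.985), ETNK1 (0.982), PHF8 (0.979), FILIP1 (0.975) and SH3PXD2B (0.974). Genes with r of at least 0.95 numbered 70 for SESN1, 92 for BAX, 66 for RRM2B and 37 for CCNG1.

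Among the members themselves r over the 8 arrays ran from 0.873 (BAX with CCNG1) to 0.964 (RRM2B with CCNG1). Over the 6 low-attachment arrays alone, where the contrast is removed, the same pairs had -0.583 and -0.185, SESN1 with CCNG1 0.555 and BAX with RRM2B 0.473. SESN1 had 0.217 with BAX and 0.172 with RRM2B there. Over these 6 arrays the 5 neighbours ranged from 0.593 to 0.913 for SESN1, from 0.886 to 0.969 for BAX, from 0.559 to 0.946 for RRM2B and from -0.502 to 0.854 for CCNG1. The neighbours were picked for high r over 8 arrays that include these 6, and the member pairs were not. Their values can therefore not be set against each other.

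**Figure D5:**
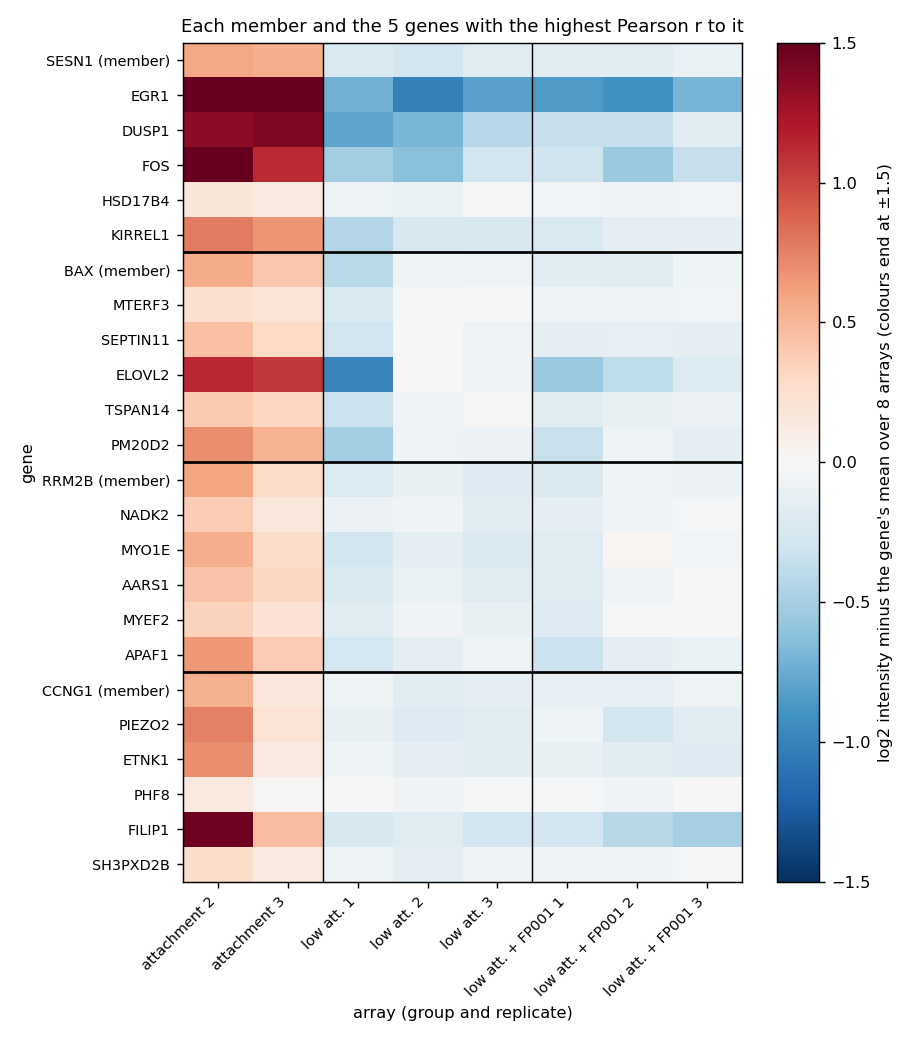
Log2 intensity minus the gene's mean over the 8 arrays (colour) for each member and the 5 genes with the highest Pearson r to it (rows), by array (columns, grouped by condition). Both attachment columns are red in every block (PHF8 is close to 0 on attachment replicate 3), and attachment replicate 2 is darker than attachment replicate 3 in the RRM2B and CCNG1 blocks.

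Markers of cell types were read beside these results. Of 18 genes of lung and A549 epithelium 12 were named and tested, and their summed intensity was 9208.5 to 9261.7 on attachment, 9647.7 to 9879.7 on low attachment and 10215.1 to 10868.2 with FP001. Of 12 leukocyte markers 6 were tested, with sums of 550.5 to 617.9, 685.5 to 941.0 and 768.8 to 1109.8 in the same order. By limma LYZ was higher in normal medium, and LYZ, CD68 and CSF1R with FP001, with 0 lower. LYZ differed from attachment by 2.26 ± 0.36 and 2.60 ± 0.36 (adjusted p = 0.00414 and 0.00124). Of the epithelial genes KRT7 was lower and GPX2 and KRT19 higher in normal medium. With FP001 EPCAM was lower, and KRT18, AQP5, GPX2 and KRT19 were higher. Of 11 fibroblast markers 3 were named, with sums of 109.7 to 169.7, 80.4 to 312.6 and 133.9 to 493.0, and 2 of them were tested. LUM made the high ends of these sums, at 246.6 and 436.5 on replicate 1 of low attachment without and with FP001, while THY1 fell by 0.45 ± 0.11 and 0.51 ± 0.11 (limma adjusted p = 0.029 and 0.0115). Both THY1 calls ended without either attachment array, and the first also without low-attachment replicate 2 or 3 (adjusted p up to 0.157). Of 9 endothelial markers 7 were named, with sums of 176.4 to 205.3, 193.0 to 214.4 and 221.8 to 237.4, and 3 were tested. The part of these markers in the members' differences was not tested.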

How the data were processed

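Each array was deposited as 1 linear intensity for every probe set. The submitters' processing notes name MAS5 for these authors' values. No source used here gives its version or settings. The labelled cRNA came from 100 ng of RNA per the labels' protocols. Probe sets (53617) were named through the platform annotation: 16098 had 1 symbol, 0 several and 37519 none, and all 16098 matched a RefSeq gene identifier. Log2 intensities were fitted with no further normalization or pseudocount, on 8 arrays. Probe sets at or above the array median on at least 3 arrays were kept (27942), and the brightest stood for each of 10916 genes, which included all 4 members. A gene bright on the 2 attachment arrays alone could not pass, so falls from near the median were not tested where the matching rises were.

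The 3 group means were fitted with limma 3.58.1 (lmFit and eBayes with a trend, R 4.3.3), two-sided, with Benjamini-Hochberg adjustment over all 10916 genes and calls at an adjusted p under 0.05. Differences are on the log2 scale, and mean intensities are mean log2 values turned back. The script was tested on simulated data. Because the labels do not call the replicates separate cultures, a p-value here reflects the spread between samples of possibly technical origin. The members and the gene lists were chosen with earlier results of these data known. Genes were named as the members, their family, up to 6 called genes per list and comparison with the largest difference, and the 5 genes most like each member. SFN under the block was named after its value was seen.

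Same-numbered arrays were checked for pairing by the correlation of their deviations from group means. It was 0.483, 0.309 and 0.231 for low attachment with and without FP001, and -0.256 to 0.138 between attachment and the others. The numbers were therefore taken to pair the low-attachment samples in the replicate block. The main fit did not use the pairing. Alternatives were the 9 arrays, scalings, filters, the replicate block and each array left out in turn.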

Additional observations from a re-analysis of the deposited data

Results flagged for a closer look

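GDF15 differed between the low-attachment media. No attached culture had FP001, so whether the effect of low attachment on GDF15 depends on the medium was not tested. FP001 minus normal medium was 0.77 on the log2 scale (1.7-fold higher with FP001, limma adjusted p = 0.0455, higher on 3 of 3 FP001 arrays than on any normal-medium array). Without the replicate block this call ended whichever of the 8 arrays was left out. The comparison shares the low-attachment arrays with the others.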

How the results depend on the processing

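With attachment replicate 1 included (9 arrays) the median of all genes moved from 0.01 to 0.72 in normal medium and from 0.02 to 0.71 with FP001, and 0 genes, 0 of them other p53 targets, were called in each of the 3 comparisons. There SESN1 was -0.55 in normal medium and -0.46 with FP001, and the other members reversed: BAX 0.64 and 0.69, RRM2B 0.81 and 0.85, CCNG1 1.52 and 1.54. The direction given for these 3 holds only with that array left out. Named genes reversed there too: AEN 0.48 and 0.55, APAF1 1.29 and 1.25, DRAM1 0.95 and 0.56, EDA2R 1.19 and 1.08, PLK2 1.05 and 1.16, PURPL 1.28 and 0.66, RPS27L 0.27 and 0.12, TP53BP1 0.72 and 0.63 in the same order, AURKA 0.72, CKS2 1.2 and PCNA 0.94 in normal medium, and GDF15 0.16 with FP001, and THY1 0.8 and 0.74. The values of attachment replicate 1 follow no other array, with a highest rank correlation of -0.00191. The fit of 9 arrays therefore cannot decide the direction of any member, SESN1 included.

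Without that array the members kept their direction against attachment in every setting run, but many settings could not have changed it. For each member every low-attachment array read below every attachment array used. Leaving out an array, or adding an offset before the log, could therefore not change a sign. Each member had 1 probe set, so filtering or averaging probe sets left its estimate as it was. Quantile normalization, centring on the median and the replicate block could have changed a sign. SESN1 moved to -0.75 and -0.66 with quantile normalization and to -0.61 and -0.54 with an offset of 16 before the log. Leaving out 1 array, RRM2B ranged from -0.76 to -0.46 and from -0.71 to -0.42, and CCNG1 from -0.65 to -0.30 and from -0.63 to -0.28. Genes called ranged from 359 to 1301, 661 to 2303 and 0 to 11 in the 3 comparisons, and other p53 targets called from 3 to 19, 8 to 21 and 0 to 0. The replicate block gave 142 genes called between the low-attachment media, against 12 without it, and 2 other p53 targets against 1; it ended 1 of the 21 p53 target calls with FP001 and none of the 17 in normal medium. Only 2 attachment arrays limit every fall given here.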
